A study of Mus musculus with 8 samples.

Results

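Hox genes encode homeodomain transcription factors and lie in 4 clusters, Hoxa to Hoxd. The array named 17097 genes, and 34 of them were Hox genes of these clusters, read by 42 of its 45037 non-control probe sets. Members were chosen by symbol alone, where a probe set was annotated to exactly 1 gene. Fibroblasts were sorted from the back skin dermis of 8 mice, with 1 array per animal. The skin of 4 mice received 150 nmol GW9662, which binds the nuclear receptor PPARG irreversibly and blocks it, in 300 µl acetone 3 times a week for 6 months, and that of 4 vehicle mice 300 µl acetone alone. Mice of both groups were 12 months old when treatment began. The subdermis was removed, and cells positive for Pdgfra and CD34 and negative for CD45, CD117, CD24, CD31 and EpCam were sorted, so dermal cells outside that gate are not described. Strain and sex are not given in the sources used here. The series asked how topical PPARG inhibition alters the transcriptome of old dermal fibroblasts.

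Within each Hox cluster, genes are numbered by paralogue group, and their order on the chromosome matches the order in which they are switched on along the body axis of the embryo, low numbers toward the head and high numbers toward the tail. Adult fibroblasts are known to keep a Hox pattern that records the site of skin they came from, maintained by Polycomb repressors and Trithorax activators. Groups 9 and 10 are known from patterning of the lower trunk, and groups 11 to 13 from the distal limb, the genital region and the tail.

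In these back skin fibroblasts the bright Hox probe sets were those of Hoxd9, Hoxc8, Hoxc10, Hoxc9 and Hoxa9, while groups 11 to 13 had no probe set above background in every sample. The values are log2 signal intensities. No detection calls were available, so a background level was set on each array as the 95th percentile of 83 probe sets of olfactory and vomeronasal receptor genes, which dermal fibroblasts are not known to use. It lay between 4.51 and 4.88 on the 8 arrays. Of the 42 Hox probe sets, 14 were above it in all 8 samples, 6 in some and 22 in none. The share above it in all 8 was 33.3% of the Hox probe sets and 44.5% of all probe sets. By its brightest probe set, 12 Hox genes were above background in all 8 samples, 5 in some and 17 in none. A probe set at background is not evidence of an absent transcript: the brightest set of Pdgfra, whose protein the cells were sorted for, had a mean of only 4.91 and passed the background level in 7 of 8 samples. Probes differ in affinity, so ranks by signal, shares of probe sets exceeded and differences between sets describe signal. They do not give relative amounts of transcript.

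**Figure D1:**
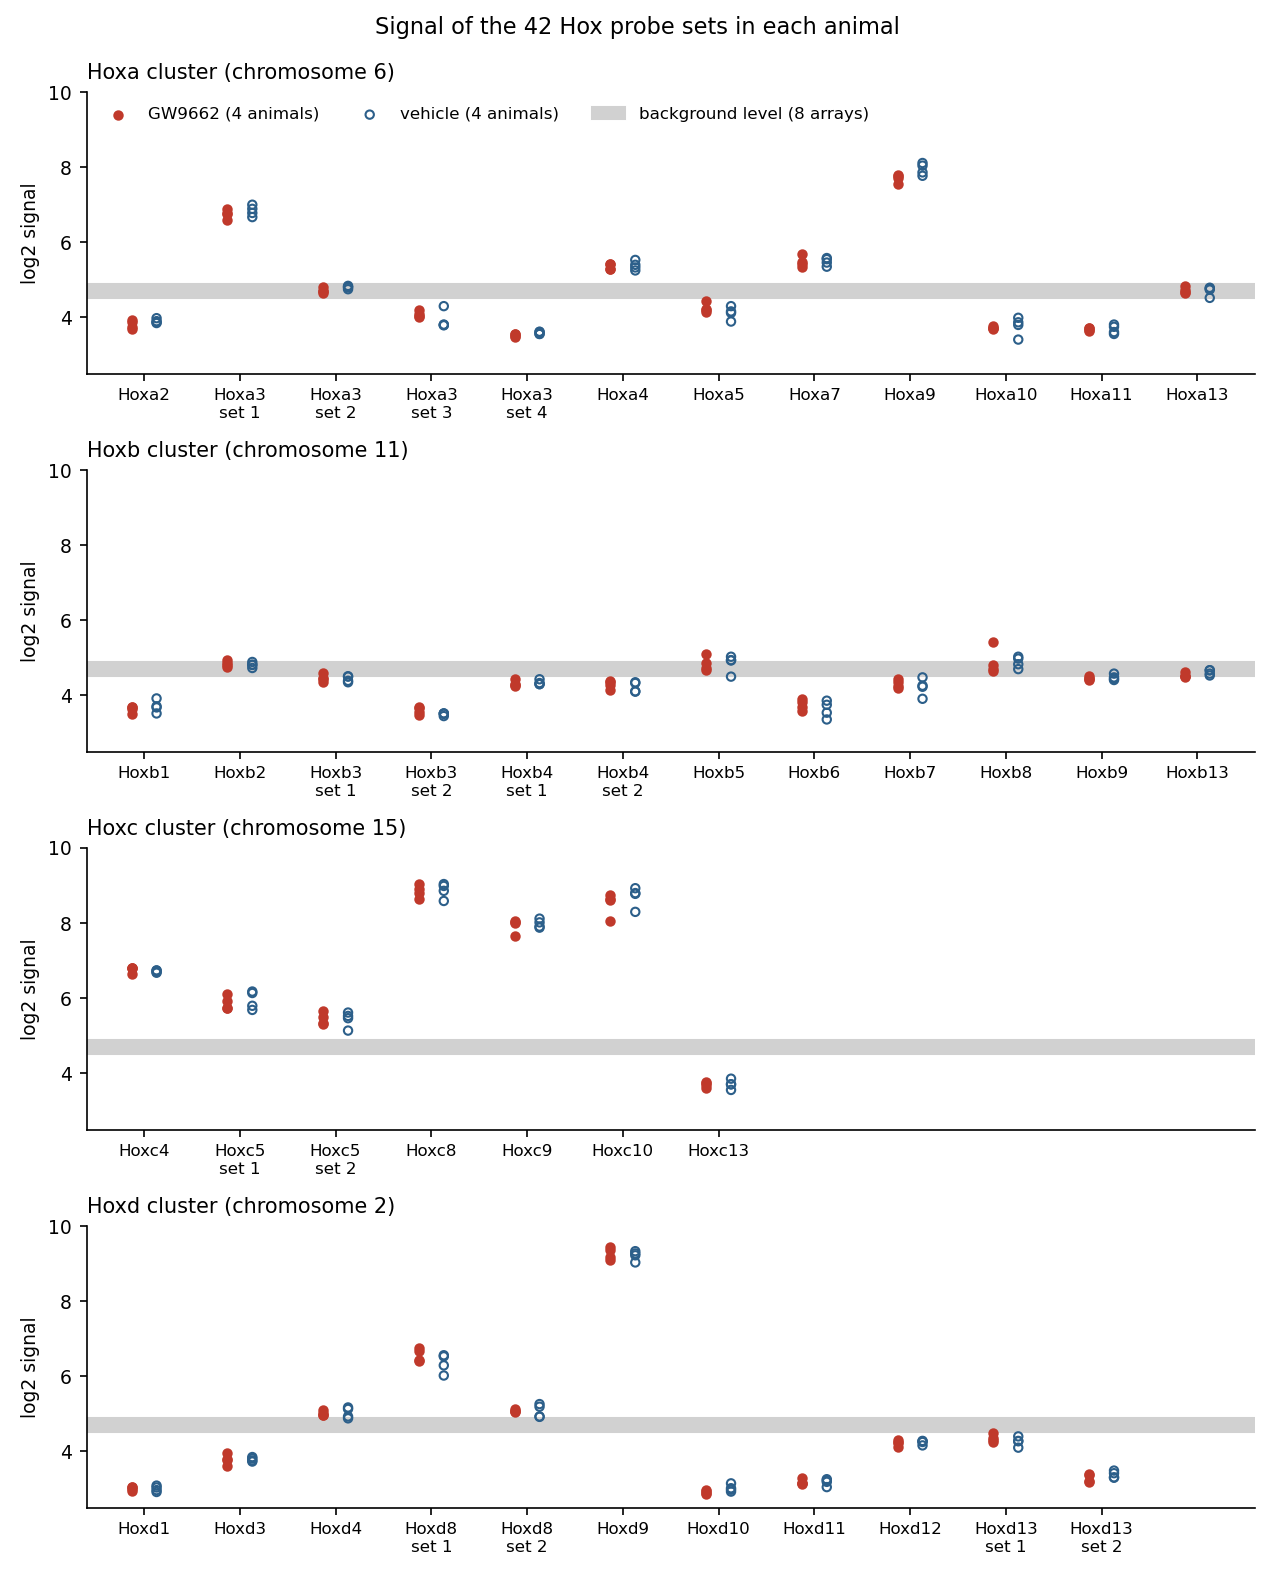
Log2 signal (vertical axis) of each of the 42 Hox probe sets in each animal, by cluster and paralogue number, with filled points for GW9662 and open points for vehicle; the grey band spans the background level of the 8 arrays, and the sets of a gene are numbered by brightness. Hoxa9, Hoxc8, Hoxc9, Hoxc10 and Hoxd9 stand far above the band in all 8 animals, and 0 of 12 Hoxb probe sets are above background in all 8.

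Neighbouring genes could lie on opposite sides of background. On chromosome 2, Hoxd8 and Hoxd9 were above background in all 8 samples, and Hoxd10, the next gene on, was in none. On chromosome 6, Hoxa9 was above in all 8 and Hoxa10, its neighbour, in none. The 250 bases before the annotated start are shown for Hoxd8, Hoxd9 and Hoxd10, the genes on either side of that boundary, and for Hoxa9, the member with the smallest p in the comparison of the groups. Sequences are from RefSeq (GRCm38.p6), 5′ to 3′ on the strand of the gene. Capitals mark CG dinucleotides, whose density is a known feature of promoters held by Polycomb.
Hoxd8, chr2:74704365-74704614, plus strand: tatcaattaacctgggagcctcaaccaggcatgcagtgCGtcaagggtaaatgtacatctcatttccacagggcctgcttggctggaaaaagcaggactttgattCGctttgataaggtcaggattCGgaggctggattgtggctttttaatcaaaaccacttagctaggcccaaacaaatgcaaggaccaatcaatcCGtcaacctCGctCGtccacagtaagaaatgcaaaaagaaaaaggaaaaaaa
Hoxd9, chr2:74697513-74697762, plus strand: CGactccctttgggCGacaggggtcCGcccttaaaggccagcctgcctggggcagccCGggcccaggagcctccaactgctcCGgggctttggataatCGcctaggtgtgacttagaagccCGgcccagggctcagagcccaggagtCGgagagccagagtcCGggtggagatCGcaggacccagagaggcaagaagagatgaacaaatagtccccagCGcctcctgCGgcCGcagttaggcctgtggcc
Hoxd10, chr2:74691641-74691890, plus strand: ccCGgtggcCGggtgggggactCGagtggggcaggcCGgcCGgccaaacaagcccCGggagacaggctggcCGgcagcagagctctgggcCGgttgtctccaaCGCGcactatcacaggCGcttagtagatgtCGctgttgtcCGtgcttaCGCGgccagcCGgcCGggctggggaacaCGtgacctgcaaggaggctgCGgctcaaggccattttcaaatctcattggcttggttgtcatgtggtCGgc
Hoxa9, chr6:52227371-52227620, minus strand: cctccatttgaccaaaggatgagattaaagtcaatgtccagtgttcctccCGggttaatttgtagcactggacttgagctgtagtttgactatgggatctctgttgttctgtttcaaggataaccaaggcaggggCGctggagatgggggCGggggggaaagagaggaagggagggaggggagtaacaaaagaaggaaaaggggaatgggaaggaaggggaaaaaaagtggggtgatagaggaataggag
The Hoxd10 stretch, from the gene at background, holds 20 CG dinucleotides, against 13 in that of Hoxd9, 6 in that of Hoxd8 and 3 in that of Hoxa9. A 300-base RefSeq promoter window, which adds 50 bases after the start, was matched for 21 of the 34 Hox genes (23 windows). At that length Hoxd10 had 22 CG dinucleotides, close to the 20 of Hoxd9, while Hoxd8 had 6 and Hoxa9 4. Hoxa3, above background in all 8 samples, and Hoxd3, at background in all 8, both had 20. The median of the 23 windows was 14 CG dinucleotides, against 7 over all 32851 windows, and 19 of the 23 were over that overall median. The 7 windows of genes above background in all 8 samples had a median of 9 and the 16 windows of the other Hox genes a median of 17.5. Those 7 cover 7 of the 12 genes above background in all 8. The bright genes Hoxc8, Hoxc9 and Hoxc10, and Hoxa4 and Hoxc5, had no matched window. Hoxa10 and Hoxd11 count with 2 windows each among the 16, so the 2 medians leave out much of the bright end. Hoxa13, near background, had the highest count at 45. The letters TGATTNAT, a motif bound by Hox proteins together with Pbx partners, were searched on both strands and found in 2 Hox windows, of Hoxa2 and Hoxd11, and in 3.22% of all windows. These counts describe letters and were not tested against the levels.

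Members of paralogue groups 1 to 3, the most anterior, were mostly at background. Of 7 such genes, 5 were at background in all 8 samples, and Hoxa3 was the member above it in all. Hoxa3 has 4 probe sets, whose means lay from 3.56 to 6.79. The brightest had values of 6.79, 6.88, 6.58 and 6.75 after GW9662, and 6.67, 6.89, 6.78 and 7.0 in vehicle, so the groups overlapped. Of the other 3 sets, 1 was above background in 6 of 8 samples and 2 in none. The brightest and the dimmest set carry the same source sequence in the annotation, and which transcripts each reads is not settled here. Hoxb2, a hindbrain patterning gene, was above background in 7 of 8 samples, with a mean of 4.83.

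Among groups 4 to 8, 7 of 13 genes were above background in all 8 samples, 2 in some and 4 in none. Hoxc8, which is known from patterning of the thoracic trunk, had values of 8.80, 8.91, 8.63 and 9.05 after GW9662, and 9.04, 8.99, 8.59 and 8.86 in vehicle. Its mean exceeded 95.5% of all probe sets, and the groups overlapped. Hoxc4 had a mean of 6.74 and the smallest range of the 14 sets above background in all 8 samples, 0.16. The brighter set of Hoxc5 had a mean of 5.91, and Hoxa4, Hoxa7 and Hoxd4 had means of 5.37, 5.48 and 5.02. Hoxd4 is the set just inside the rule, 0.003 above background in its lowest sample, and Hoxb5 the set just outside, 0.008 below background in its lowest. Hoxd8 has a set with a mean of 6.46, marked by its name as matching several transcripts, and a second with a mean of 5.08.

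Hoxb was the cluster with no gene above background in every sample, a count that was not tested against the other clusters. Of its 10 genes, 0 were above background in all 8 samples, 4 in some and 6 in none. Hoxb2, Hoxb5 and Hoxb8 each passed in 7 of 8 samples, falling short in vehicle 4, vehicle 2 and GW9662 1. The 0 for Hoxb thus depends on single arrays and on the background level chosen. The corresponding counts of genes above in all 8 were 4 of 9 for Hoxa, 5 of 6 for Hoxc and 3 of 9 for Hoxd. Hoxb8, whose set is also marked as matching several transcripts, had 5.42 in GW9662 2 against 4.64, 4.82 and 4.71 in the other GW9662 animals, and 4.83, 4.70, 4.98 and 5.03 in vehicle. That animal stood highest of the 8. Hoxa5, a gene known from lung and thoracic development, was at background in all 8 samples, with 4.22, 4.21, 4.14 and 4.44 after GW9662, and 3.89, 4.30, 4.12 and 4.16 in vehicle.

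Groups 9 and 10 held 3 of the 4 probe sets called high, that is, above background in all 8 samples with a mean in the top 10% of all probe sets (7.85 or more). Hoxd9, known from limb and trunk patterning, had 9.43, 9.35, 9.18 and 9.09 after GW9662, and 9.27, 9.33, 9.03 and 9.22 in vehicle. Its lowest sample lay 4.34 above the background of its array. Hoxc9, a thoracic patterning gene, had 7.67, 8.04, 8.0 and 8.05 after GW9662, and 8.02, 8.12, 7.88 and 7.91 in vehicle. Hoxc9 was thus lowest in GW9662 1, with the other 7 samples close together. Hoxc10, which marks the lumbar level and the hindlimb, had 8.07, 8.61, 8.63 and 8.76 after GW9662, and 8.78, 8.93, 8.80 and 8.30 in vehicle. GW9662 1 was again lowest and vehicle 4 next. Hoxc9 was the set just inside the cut for high (mean 7.96) and Hoxa9 the set just outside it (7.82). At background in all 8 samples were Hoxa10, Hoxb9 and Hoxd10, the last with 2.97, 2.86, 2.88 and 2.94 after GW9662, and 3.02, 2.93, 2.98 and 3.15 in vehicle.

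In groups 11 to 13, 5 of 7 genes were at background in all 8 samples and 2, Hoxa13 and Hoxb13, above it in some. Hoxa13, a gene of the distal limb and genital tubercle, passed in 5 of 8 samples with a mean of 4.72. Hoxb13, known from tail and prostate, passed in 1 of 8, vehicle 2, with a mean of 4.57. Hoxd11, Hoxd12, Hoxa11 and Hoxc13, the last known from hair and nail, had means of 3.19, 4.23, 3.68 and 3.71. Hoxd13 has 2 sets, with means of 4.31 and 3.34.

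No Hox probe set passed the test between the groups. Limma was fitted over all 45037 probe sets as GW9662 minus vehicle, with Benjamini-Hochberg adjustment over all of them. At an adjusted p under 0.05 there were 0 Hox sets and 0 sets in all (0.0% of probe sets), and the smallest adjusted p of a Hox set was 0.997. At an unadjusted p under 0.05 there was 1 of 42 Hox sets, where all probe sets had 3.55%. It was a lower set, and 1.74% of all probe sets were lower at that p. With same-numbered animals as a replicate block, 2 of 42 (Hoxa9 and the brighter set of Hoxd8) had an unadjusted p under 0.05, against 4.85% of all probe sets, and 0 an adjusted one. The groups overlapped in all 42, while 1.9% of all probe sets had groups without overlap. Of the Hox sets, 19 were higher and 23 lower by any amount, and 50.9% of all probe sets were lower. The median log2 fold change was -0.0025 for the Hox sets and -0.0025 for all probe sets. Of the 42 Hox sets, 7 differed by more than 0.1 on the log2 scale in either direction, as did 24.4% of all probe sets. The 95% intervals of the 42 sets reached from -0.56 to 0.50 at their widest. A lower signal cannot be told apart, in RNA from sorted bulk cells, from fewer cells of a kind that carries the transcript.

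Hoxa9, a trunk and posterior patterning gene also known from blood progenitors, was the 1 set with an unadjusted p under 0.05. Its values were 7.54, 7.72, 7.78 and 7.77 after GW9662, and 8.04, 8.11, 7.86 and 7.77 in vehicle. The groups met at 7.77, the value of GW9662 4 and of vehicle 4, below GW9662 3 at 7.78. The means were 7.70 ± 0.11 after GW9662 and 7.95 ± 0.16 in vehicle (SD, n = 4 each). The difference was -0.24 ± 0.09 (SE) on the log2 scale, and its 95% interval ran from -0.44 to -0.04 (limma unadjusted p = 0.0218, adjusted p = 0.997). Same-numbered animals differed by -0.50, -0.39, -0.08 and 0.00 for numbers 1 to 4. The log2 fold change lay between -0.30 without vehicle 4 and -0.19 without vehicle 2 when any 1 sample was left out. On the first principal component over all probe sets, vehicle 4 was at 33.7 and the other 7 arrays between -17.6 and 9.01. Without vehicle 4 the unadjusted p was 0.00658 and the groups no longer overlapped, as in 4.37% of all probe sets without that array, with an adjusted p of 0.999. Without GW9662 1 it was 0.0665, without vehicle 1 0.0601 and without vehicle 2 0.0653.

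**Figure D2:**
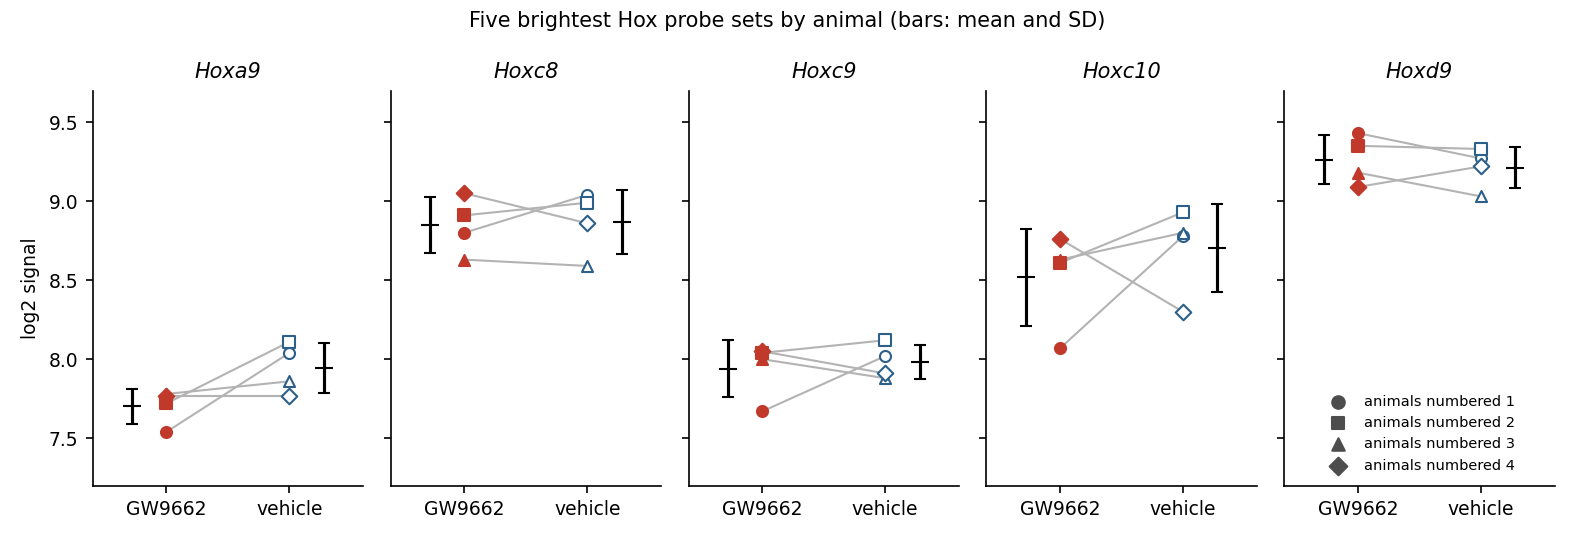
Log2 signal (vertical axis, not starting at 0) of the brightest Hox probe sets in each animal, GW9662 left and vehicle right; marker shape and grey lines join animals of the same number, and black bars give the group mean and SD (n = 4). The groups overlap in each panel, Hoxa9 is lower or equal in GW9662 in all 4 numbered pairs, and GW9662 1 is the lowest animal for Hoxa9, Hoxc9 and Hoxc10.

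The other bright genes gave smaller values relative to their spread. Hoxc10 averaged 8.52 ± 0.31 after GW9662 and 8.70 ± 0.28 in vehicle (SD, n = 4 each), which is -0.18 on the log2 scale (95% interval -0.56 to 0.19). It was lower in 3 of 4 pairs. Without GW9662 1 the difference was -0.036. Without vehicle 4 it was -0.32 (limma unadjusted p = 0.0598, adjusted p = 0.999). The groups did not overlap there, as in 4.37% of all probe sets without that array. Hoxd9 averaged 9.26 ± 0.16 after GW9662 and 9.21 ± 0.13 in vehicle, which is 0.05 on the log2 scale (95% interval -0.16 to 0.26). Hoxc9 was at -0.04, from -0.26 to 0.17, and Hoxc8 at -0.02, from -0.28 to 0.23. These 3 changed sign with some single samples left out. Intervals of this width include shifts of up to about the size seen in Hoxa9, so the values do not show that these genes are alike in the groups.

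Of the sets with a positive difference, the brighter set of Hoxd8 had the smallest p. Its values were 6.74, 6.67, 6.43 and 6.40 after GW9662, and 6.56, 6.53, 6.29 and 6.02 in vehicle. It was higher in 4 of 4 pairs, with a log2 fold change of 0.21 ± 0.13 (SE), while the second set of the same gene was at 0.0075. With the replicate block the brighter set had an SE of 0.07 and a 95% interval from 0.05 to 0.37 (limma unadjusted p = 0.0163, adjusted p = 0.9749), against an unadjusted p of 0.132 without it. Vehicle 4 was lowest in the brighter set, the ranges overlapped, and without vehicle 4 the difference was 0.10. Next came members at background, where a difference says little: a set of Hoxb3 at 0.10, Hoxa5 at 0.14, a dim set of Hoxa3 at 0.16 and a set of Hoxd13 at 0.09. That Hoxb3 set had 3.66, 3.48, 3.56 and 3.68 after GW9662, and 3.45, 3.51, 3.52 and 3.52 in vehicle. The dim Hoxa3 set had 4.03, 4.20, 4.00 and 4.09 after GW9662, and 3.80, 3.79, 4.30 and 3.81 in vehicle, so vehicle 3 was the highest of the 8. The Hoxd13 set had 4.30, 4.24, 4.37 and 4.49 after GW9662, and 4.40, 4.27, 4.10 and 4.28 in vehicle.

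On the negative side, after Hoxa9, Hoxd10 at -0.11 was lower in 4 of 4 pairs, with all 8 values far under background. A Hoxa3 set near background was at -0.08, with 4.81, 4.70, 4.70 and 4.66 after GW9662, and 4.81, 4.75, 4.80 and 4.84 in vehicle. Hoxb13 was at -0.08, with 4.53, 4.51, 4.61 and 4.48 after GW9662, and 4.67, 4.53, 4.58 and 4.67 in vehicle. The dimmest Hoxa3 set was at -0.07, with 3.51, 3.55, 3.47 and 3.56 after GW9662, and 3.56, 3.61, 3.62 and 3.56 in vehicle. The 4 sets of Hoxa3 thus had differences of both signs, as had those of Hoxb4, Hoxc5 and Hoxd13. For these 4 of the 6 genes with several sets, the sign depends on the set.

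**Figure D3:**
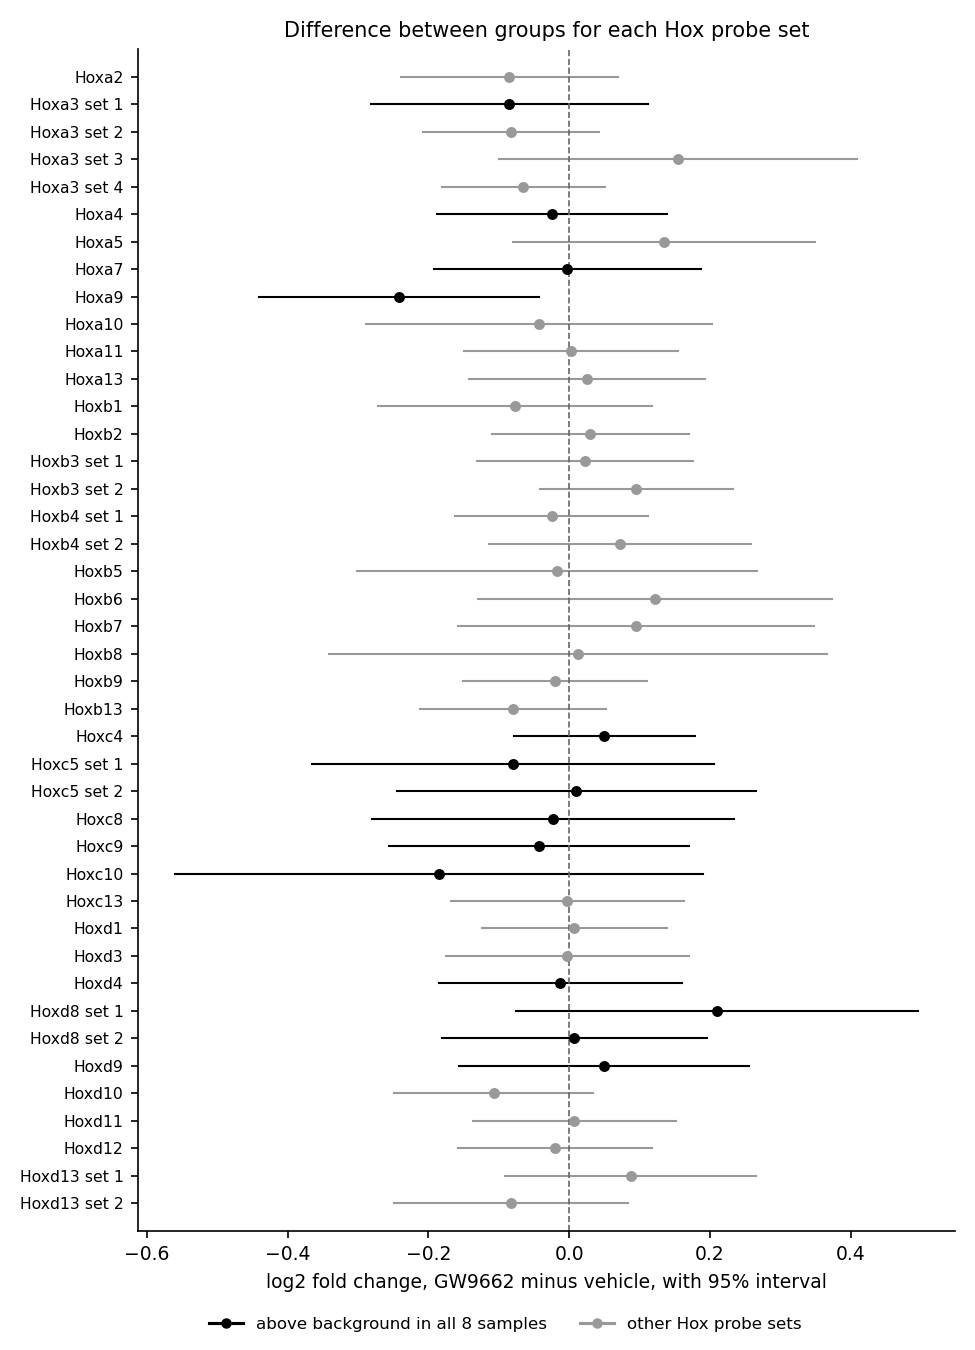
Log2 fold change of GW9662 minus vehicle (horizontal axis) with its 95% limma interval for each of the 42 Hox probe sets, ordered by cluster and paralogue number; black marks sets above background in all 8 samples. The interval of Hoxa9 (-0.44 to -0.04) is the 1 interval that leaves out 0 in this fit, which has no replicate block.

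Stability over the 8 animals was near that of other probe sets of like level. The 14 sets above background in all 8 samples had a median SD over the 8 samples of 0.14, and all probe sets above background in all 8 likewise 0.14. Set against probe sets with means within 0.25 of its own, a Hox set above background had an SD larger than a median of 48.8% of them. Hoxc4 was the quietest, with an SD of 0.06 that exceeded 2.08% of sets of like level. Hoxc10 was the loudest, with an SD of 0.29 and a range of 0.86 that placed it above 94.3% of them. Hoxd9, Hoxc9, Hoxa9 and Hoxc8 had SDs of 0.14, 0.14, 0.18 and 0.18. Over the 42 sets, 22 were quieter than the median of their level, and the lowest and highest shares of like sets they exceeded were 2.08% and 96.0%. All these shares describe the sets and were not tested.

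**Figure D4:**
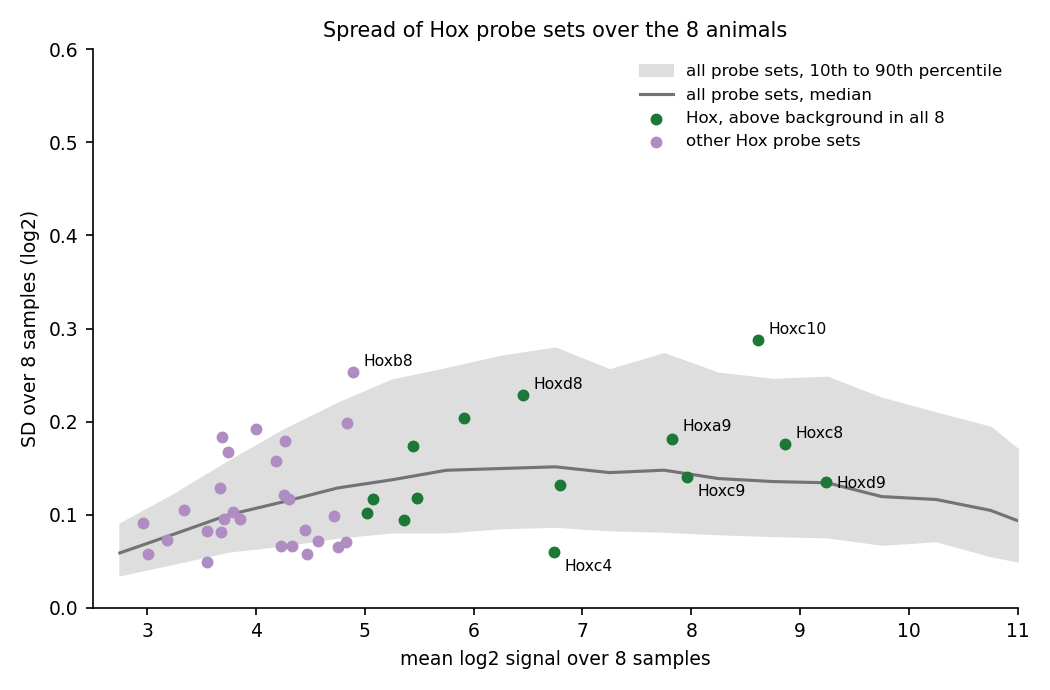
SD over the 8 samples (vertical axis, log2) against the mean log2 signal (horizontal axis) of the 42 Hox probe sets; the grey band spans the 10th to the 90th percentile of all probe sets at each level and the line their median. Hoxc10 (SD 0.29), Hoxb8 (SD 0.25) and Hoxb6 (SD 0.18) are among the sets above the band. Hoxc4 (SD 0.06) and Hoxb9 (SD 0.06) are among those below it, and most Hox sets lie inside.

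Among the bright genes, Hoxa9 and Hoxc10 varied together by rank from animal to animal. Correlations across the 8 samples were computed for the 10 pairs among Hoxa9, Hoxc8, Hoxc9, Hoxc10 and Hoxd9, the sets with a mean over 7.5. Hoxa9 and Hoxc10 had Pearson r = 0.81 (exact permutation p = 0.00516, adjusted over the 10 pairs p = 0.0516) and Spearman rho = 0.90 (exact permutation p = 0.00456, adjusted p = 0.0456). Without the 2 samples farthest from the median of Hoxa9, r was 0.82 over the 6 others, and within the groups it was 0.87 over all 8. Hoxc9 and Hoxc10 had r = 0.82 and rho = 0.52 (exact permutation p = 0.0323 and 0.197, adjusted p = 0.153 and 0.634), with r = 0.93 without the 2 farthest samples. Hoxa9 and Hoxc9 had r = 0.71 and rho = 0.41 (exact permutation p = 0.0460 and 0.317, adjusted p = 0.153 and 0.634), with r = 0.64 without the 2 farthest. The other 7 pairs had r from -0.46 to 0.48, with Hoxd9 at or below 0.32 in each. Leaving out the 2 farthest samples moved r from 0.22 to 0.91 for Hoxc8 and Hoxc10. It moved r from -0.17 to -0.89 for Hoxa9 and Hoxd9, and from 0.32 to -0.63 for Hoxc8 and Hoxd9. An r over 6 samples thus says little about any pair. Values of a pair share the array and the amplification, and the part of these in the correlations was not tested.

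Differences within each array between Hoxc10, Hoxc9 and Hoxc8, which lie in that order on the chromosome, overlapped between the groups. Hoxc10 minus Hoxc8 was -0.73, -0.30, 0.00 and -0.29 after GW9662, and -0.26, -0.06, 0.21 and -0.56 in vehicle. Means were -0.33 ± 0.30 after GW9662 and -0.17 ± 0.32 in vehicle (SD, n = 4 each), a gap smaller than the spread between animals. GW9662 1 and vehicle 4 had the lowest difference of their groups. Hoxc10 minus Hoxc9 was 0.40, 0.57, 0.63 and 0.71 after GW9662, and 0.76, 0.81, 0.92 and 0.39 in vehicle, so vehicle 1, 2 and 3 lay above every GW9662 animal and vehicle 4 below them all. Hoxc9 minus Hoxc8 averaged -0.91 ± 0.21 after GW9662 and -0.89 ± 0.13 in vehicle.

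The partners of Hox proteins, TALE homeodomain factors that bind DNA with them, were well represented, and none passed the test over all probe sets. Of 8 measured genes (9 listed), 7 were above background in all 8 samples. By any amount 7 were lower and 0 higher, the median of the 8 being -0.12 (log2), and 50.9% of all probe sets were lower. Limma gave 1 of 8 an unadjusted p under 0.05 (adjusted p = 0.997), against 3.55% of all probe sets. That was Pbx3, with 4.50, 4.82, 4.78 and 4.66 after GW9662, and 4.82, 4.89, 5.02 and 4.82 in vehicle, a set above background in 5 of 8 samples whose groups met at 4.82. Pknox1 had 8.08, 8.15, 8.20 and 8.21 after GW9662, and 8.39, 8.24, 8.25 and 8.22 in vehicle. Its groups lay apart by 0.01, and 1.9% of all probe sets had groups without overlap. Meis3 was at -0.12 and Meis2 at -0.06, while Meis1, a partner of Hoxa9 in blood progenitors, had a mean of 7.36 in both groups. These genes share a family and an array, so their common sign is a description.

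Genes known to hold Hox states in place were measured widely. Of 20 measured Polycomb genes (23 listed), 18 were above background in all 8 samples, 9 were higher and 11 lower (50.9% of all probe sets were lower), and 0 had an unadjusted p under 0.05 in limma, against 3.55% of all probe sets. Ezh1, a histone H3 lysine methyltransferase, was the brightest, with a mean of 8.57 and a log2 fold change of -0.10. Next came Rbbp7 and Jarid2 at 0.06 and -0.10. The smallest p were those of Pcgf2 at -0.18, Rnf2 at 0.15 and Cbx6 at 0.15. Of 10 measured Trithorax activators and demethylases (13 listed), all 10 were above background in all 8 samples, 5 were higher and 4 lower, and 0 had an unadjusted p under 0.05, beside the same shares of all probe sets. Kmt2c and Kmt2d, histone methyltransferases, and Dpy30, a subunit they share, had means of 9.20, 8.66 and 7.66. The values of smallest p there were Wdr5 at 0.16, Kmt2d at -0.08 and Psip1 at 0.08. The posterior inputs of the embryo were dim: of 5 measured (7 listed), 3 were at background in all 8 samples, among them Cdx4 and Cyp26a1. Cdx2 was above background in 7 samples with a mean of 4.79 and a log2 fold change of 0.08, and Cdx4 was at 0.10, Cyp26a1 at -0.05 and Gdf11 at -0.02. Of 4 measured noncoding RNAs of the Hox loci (14 listed), 0 were above background in all 8 samples. Hoxaas2, Hoxb5os, Hoxd3os1 and Hoxa11os had means of 4.64, 4.61, 3.95 and 3.07 and log2 fold changes of -0.10, 0.06, 0.12 and -0.03.

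Other factors of regional identity gave a mixed picture of level. Of 20 measured (24 listed), 8 were above background in all 8 samples and 8 in none. Prrx1, a mesenchymal homeobox gene, had a mean of 11.27, Prrx2 of 8.05 and Tbx15, known from dorsal dermis, of 7.97. Among limb genes, Tbx4 was at background in all 8 samples with a mean of 3.85, while Tbx5 and Pitx1 were above it in all, with means of 5.06 and 5.62. The list had 5 members higher and 15 lower, with a median of -0.06, where 50.9% of all probe sets were lower. Dlx6 at -0.14 (4.08, 4.08, 4.07 and 4.07 after GW9662, and 4.23, 4.17, 4.16 and 4.31 in vehicle) alone of the 20 had an unadjusted p under 0.05 (limma adjusted p = 0.997), as had 3.55% of all probe sets. Its groups did not overlap, as in 1.9% of all probe sets, and all 8 values were under background. Emx2 was at -0.15 and Alx1 at -0.13.

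Of the markers the cells were sorted for, Cd34 was above background in all 8 samples (mean 10.7) and Pdgfra in 7 (mean 4.91). CD24 was not looked at. The list of dermal fibroblast markers also holds genes outside the gate. Of 10 dermal fibroblast markers, 9 were above background in all 8 samples, and their mean level ran from 10.28 to 10.39 after GW9662 and from 10.15 to 10.41 in vehicle. Of the markers sorted against, Ptprc (CD45), Kit (CD117) and Epcam were at background in all 8, and Pecam1 (CD31) was above it in 7 with a mean of 4.93. The measured markers of skeletal muscle (7 of 7) and adipocytes (3 of 3) were at background in all 8 samples, as were 5 of 8 for keratinocytes, 5 of 7 for mast cells and melanocytes, 4 of 7 for leukocytes, 4 of 7 for endothelium, 1 of 6 for mural cells, 0 of 3 for Schwann cells and 4 of 5 for the dermal papilla. Endothelial markers had a mean level from 4.69 to 5.01 after GW9662 and from 4.64 to 5.11 in vehicle, and mural markers from 5.17 to 5.40 after GW9662 and from 5.32 to 5.54 in vehicle. Of other cell types, Krt10, Krt5 and Krt14 of keratinocytes had means of 6.94, 5.78 and 5.24, Cd68 and Csf1r of macrophages 8.22 and 6.45, and Kdr and Tek of endothelium 7.84 and 6.03, with samples from 6.72 to 8.58 and from 5.53 to 6.71. Pecam1 apart, the other 4 endothelial markers, Cdh5 and Vwf among them, were at background in all 8. Kcnj8 of mural cells had a mean of 7.86 and a log2 fold change of -0.39 (limma unadjusted p = 0.0574). The other mural markers went both ways, from -0.27 for Myh11 to 0.15 for Acta2. Tek was at -0.38, Crabp1 of the dermal papilla at 0.46 and Mlana of melanocytes at 0.45 (limma unadjusted p = 0.108, 0.0857 and 0.132). The other markers of these lists went both ways. Those of endothelium ran from -0.06 for Kdr to 0.13 for Cldn5, and those of the dermal papilla from -0.03 for Corin to 0.12 for Lef1. Those of mast cells and melanocytes ran from -0.06 for Pmel to 0.095 for Dct. Mlana itself lay between 4.71 and 6.30 over the samples. The part of these cells in the Hox values was not tested. Array medians lay between 4.63 and 4.69.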

How the data were processed

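Gene expression was measured by microarray in sorted dermal fibroblasts of 8 mice. The deposited values are log2 signal intensities with 2 decimals, made with RMA and affy per the submitters' processing notes. That the logarithm has base 2 was inferred from how far the values reach. Per the labels' protocols, RNA came from 5000 cells, amplification took 21 cycles and 7.8 µg of cDNA was labelled, which can distort relative signals.

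Of 45141 probe sets, 104 controls were left out. Members were found by symbol in the platform annotation (28898 sets with 1 gene, 551 with several, 15692 unnamed here, controls included). The RefSeq gene table (GRCm38.p6) was used for names and neighbours, and Hox genes without such a probe set are not analysed here. The test was limma 3.58.1 in R 4.3.3 (lmFit, eBayes, no covariate, two-sided, adjusted over 45037 probe sets, threshold 0.05). It was also run on simulated independent values, with shifts larger than any Hox difference here. That run does not speak to differences of the size seen. Precision is set by how many arrays there are. Each limma p weighs a group difference against the spread between these animals, an estimate that borrows from all probe sets.

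The members and lists were chosen with earlier results of these data known. Genes named with every value were the high sets, the sets without overlap and the 5 of smallest p per direction. In other lists they were the 3 of smallest p and the 3 brightest, by a gene's brightest set. Genes outside this rule, such as Hoxb8 and the limb genes, were chosen after their values were seen. The design text has animals of the groups sacrificed in pairs by day. Same-numbered samples had deviations from their group means that correlated at 0.218 (number 1), 0.157 (number 2), 0.108 (number 3) and 0.147 (number 4), so numbers were read as pairs, though vehicle 2 correlated best with GW9662 1. Correlations between samples over probe sets ran from 0.990 to 0.996, and no 2 arrays held identical values. The alternatives tried were the replicate block, trend and robust variances, 1 or the mean set per gene, a filter on dim sets, 2 scalings, array weights, each sample left out, and other background levels.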

Additional observations from a re-analysis of the deposited data

Results flagged for a closer look

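In each group of 4 animals, a sample was marked where its gap to the nearest other, as a share of the group's range, passed Dixon's 95% critical value. Among the 84 groups of the 42 Hox probe sets, 4 were marked, where chance marks about 1 in 20, or 4.2. Hoxc9 was at 7.67 in GW9662 1, below 8.0 to 8.05 in the other GW9662 animals. Hoxc4 was at 6.65 in GW9662 4, below 6.80 to 6.81 in the others. A dim Hoxa3 set was at 4.30 in vehicle 3, above 3.79 to 3.81 in the other vehicle animals, and a dim Hoxb3 set was at 3.45 in vehicle 1, below 3.51 to 3.52. Each is 1 value of 1 array, and no cause was tested.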

How the results depend on the processing

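Under all 16 alternatives, 0 Hox probe sets had an adjusted p under 0.05, and the smallest in any was 0.949. The fit with the replicate block changed no adjusted call (0 Hox sets), and the median log2 fold change of the Hox sets stayed at -0.0025 there. That median ran from -0.037 (without vehicle 3) to 0.017 (without vehicle 4) with a sample left out. The number of Hox sets without overlap between the groups was 0, 1 (Hoxa9) with renewed quantile normalization, and 0 to 3 with a sample left out, the 3 being Hoxa9, Hoxa10 and Hoxc10 without vehicle 4. Over all probe sets the share without overlap was 1.90%, 2.35% with quantile normalization and 3.33% to 5.25% with a sample left out. The 14 sets above background in all 8 samples became 8 with the 99th percentile of the receptor sets as background, 20 with the 90th, 16 with the array median, and 14 to 15 with a sample left out. Of 212 values of the 14 named sets under alternatives, 8 turned sign. With a sample left out, Hoxc8 ran from -0.116 to 0.05 (above 0 without GW9662 3, vehicle 1 or vehicle 2), Hoxc9 from -0.0792 to 0.0475 (above 0 without GW9662 1 or vehicle 2) and Hoxd9 from -0.0108 to 0.1075 (below 0 without GW9662 1 or vehicle 3). The dim Hoxa3 set turned to -0.0194 with the mean of its gene's sets. The causes were not tested. Without vehicle 3 that dim Hoxa3 set was at 0.28 (limma unadjusted p = 0.00233, adjusted p = 0.982). No detection calls were used, so low signals limit what can be read from members near background.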
